A study of Mus musculus with 8 samples.

Results

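The 9 genes described here carry vitamin A out of the liver, store it and oxidise it. They are Rbp4, Lrat, Rdh16, Rdh10, Rdh11, Dhrs3, Aldh1a1, Cyp26a1 and Retsat, taken by symbol from a deposited table of 21358 genes. All 9 were in the table, and all 9 passed the filter on low values, 1 FPKM or more in 4 or more libraries, that kept 9867 genes for testing. FPKM is the number of sequenced fragments per kilobase of gene, scaled to the library's counted total, so that levels can be compared between genes.

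Hepatic RNA was sequenced from mice kept for 22 weeks on a regimen of fasting every other day, described by the submitters as a model of metabolic dysfunction. The labels name a feeding glucose group (FG, libraries 93, 94, 95 and 96) and a starvation glucose group (SG, libraries 101, 103, 104 and 105), and the study asked how glucose taken in the fed or the fasted state altered liver transcripts. All 8 libraries share the regimen, and no group without it or without glucose was analysed here. Neither sex, age nor strain is labelled, nor batch, hour of collection or time since the last food or glucose, and nothing states that the libraries came from separate animals, so p-values measure only the spread between these libraries. Counted fragments were 36545128 to 41977438 per library. Albumin (Alb), the defining hepatocyte transcript, stood at 35965 to 49861 FPKM in all 8 libraries.

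The liver is the body's main vitamin A store. Hepatocytes take up dietary retinyl esters, hydrolyse them and secrete retinol bound to RBP4, which travels in plasma with transthyretin, while surplus retinol passes to stellate cells, where LRAT esterifies it for storage in lipid droplets. Retinol dehydrogenases oxidise retinol reversibly to retinal, aldehyde dehydrogenases oxidise retinal irreversibly to retinoic acid, and CYP26 enzymes inactivate retinoic acid, the ligand of the nuclear receptors RAR and RXR. In bulk tissue, fewer cells of a type and less RNA per cell cannot be told apart.

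Retinoic acid receptors bind direct repeats of a core hexamer, and the classic retinoic acid response elements have 5 bases between the copies. A search of RefSeq promoter windows of 300 bases around each start site (build GRCm38.p6), on both strands, took as cores AGGTCA and its variant AGTTCA, together with GGGTCA and its variant GGTTCA. A pair of cores with 5 bases between was found in 32 of 32851 windows, or 0.0974%. Of the 9 genes, 8 had a window, 13 windows in all, and Cyp26a1 alone among them held this repeat. Rarb, itself a retinoic acid receptor gene, held it too and was the only other gene with one among the 45 genes with a window on a wider list of 58 retinoid genes. Neither repeats with 2 bases between (0.268% of all windows) nor those with 1 base between (0.222%) were found in the 13 windows. The windows of Cyp26a1 (chr19:37697558-37697857, plus strand, repeat at bases 219 to 235 and readable on the opposite strand) and Rarb (chr14:16575427-16575726, minus strand, repeat at bases 198 to 214) are printed with the repeat in capitals, since this repeat is the type of element that retinoic acid receptors are known to bind.
Cyp26a1: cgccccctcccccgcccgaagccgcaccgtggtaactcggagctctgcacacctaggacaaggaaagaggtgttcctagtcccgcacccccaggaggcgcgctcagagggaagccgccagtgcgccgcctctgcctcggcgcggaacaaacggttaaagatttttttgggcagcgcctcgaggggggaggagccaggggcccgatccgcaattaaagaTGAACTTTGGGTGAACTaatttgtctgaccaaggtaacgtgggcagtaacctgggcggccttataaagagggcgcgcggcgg
Rarb: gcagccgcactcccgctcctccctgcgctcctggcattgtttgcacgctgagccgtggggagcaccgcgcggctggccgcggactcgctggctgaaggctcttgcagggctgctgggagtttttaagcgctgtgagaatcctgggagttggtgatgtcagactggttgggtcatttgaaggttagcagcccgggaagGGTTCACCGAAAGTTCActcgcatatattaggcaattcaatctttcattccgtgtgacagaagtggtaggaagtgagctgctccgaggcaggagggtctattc
A second window, of Rdh11, is printed because Rdh11 had the largest fall of the 9 genes (chr12:79190912-79191211, minus strand). Its capitals mark a pair of E-boxes, CACGTG, at bases 21 to 26 and 69 to 74. At least 1 such E-box was present in 7.15% of all windows.
Rdh11: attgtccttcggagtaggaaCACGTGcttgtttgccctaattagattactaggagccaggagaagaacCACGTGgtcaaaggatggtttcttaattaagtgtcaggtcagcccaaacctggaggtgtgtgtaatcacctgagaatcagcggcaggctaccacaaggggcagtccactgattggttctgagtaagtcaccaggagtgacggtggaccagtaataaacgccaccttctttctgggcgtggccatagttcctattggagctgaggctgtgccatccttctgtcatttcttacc
The forkhead motif TGTTTAC was found in windows of Rbp4 and Dhrs3 and in 3.65% of all windows. A match describes these letters only.

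Across the 9 genes, Rdh10 and Rdh11 were lower in SG and none was higher by limma at an adjusted p below 0.05, with p-values adjusted over all 9867 tested genes. That is 2 of 9, or 22.2%, where 19.4% of all tested genes were called in either direction, 15.6% lower and 3.73% higher, so the share stood near the background. The median log2 fold change of the 9 genes was -0.06, and that of all tested genes was -0.14. Fold changes throughout compare SG with FG (positive: higher in SG) on log2(FPKM + 1), a scale that understates changes of low genes. At an unadjusted p below 0.05 the 9 genes held 1 higher gene, Rbp4. Groups did not overlap for 2 of the 9 genes, Rbp4 and Rdh10, where 26.1% of all tested genes had groups that did not overlap.

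Scaling the libraries by median ratios shifted the median of all tested genes by 0.141 on the log2 scale, from -0.135 to 0.006. Of all tested genes, 368 higher and 1544 lower calls became 545 and 499, and 10.6% were called in either direction. Among the 9 genes the single call was then Rbp4, higher in SG, in place of Rdh10 and Rdh11. As deposited, 6898 of the 9867 tested genes had a negative log2 fold change.

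**Figure D1:**
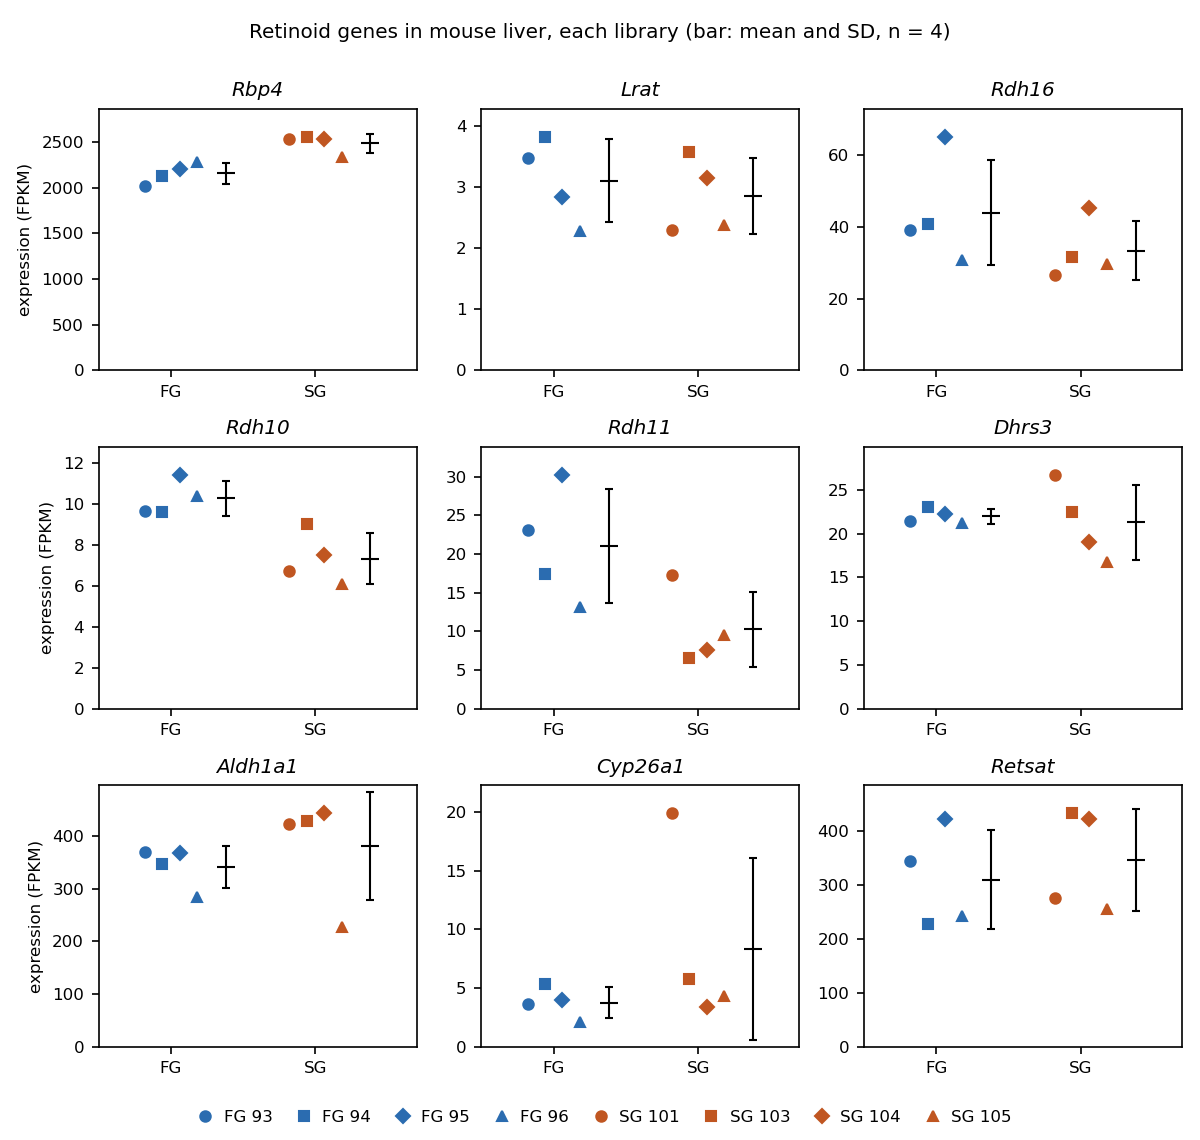
Expression in FPKM of the 9 retinoid genes in each of the 4 FG (blue) and 4 SG (orange) libraries, with the mean and SD beside the points on axes that start at 0. Rbp4 and Rdh10 have groups that do not overlap, and single libraries stand apart for Cyp26a1 (SG 101 at 19.9) and Aldh1a1 (SG 105 at 227).

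The 9 genes differed widely in level. Averaged over the 8 libraries, Rbp4 stood at 2321 FPKM, followed by Aldh1a1 at 361, Retsat at 327, Rdh16 at 38.7, Dhrs3 at 21.6, Rdh11 at 15.6, Rdh10 at 8.78, Cyp26a1 at 6.06 and Lrat at 2.98. The ranges over libraries of Aldh1a1 (227 to 443) and Retsat (227 to 432) overlapped almost fully, as did those of Cyp26a1 and Lrat in part. Rbp4 lay above Aldh1a1 in every library, and Retsat (lowest 227) lay above Rdh16 (highest 65.2).

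Transport out of the liver rests on Rbp4, the plasma carrier of retinol, whose transcript lies on chromosome 19 at 38116620 to 38125321. It measured 2013, 2123, 2208 and 2283 FPKM in FG 93, 94, 95 and 96 and 2527, 2555, 2530.0 and 2333 FPKM in SG 101, 103, 104 and 105. All SG libraries lay above all FG libraries, with SG 105 nearest to them. The means were 2157 ± 116 (SD, n = 4) and 2486 ± 103 (SD, n = 4). The log2 fold change of 0.21 (SE 0.0815, 95% interval 0.02 to 0.39) did not pass the threshold (limma adjusted p = 0.105, exact two-sided permutation p = 0.0286, the smallest that 4 against 4 libraries allow). After median-ratio scaling the log2 fold change of Rbp4 was 0.38 and it passed (limma adjusted p = 0.0311).

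Ttr, the transthyretin that holds RBP4 in plasma, was the most abundant gene of the transport role that did not pass. Its level was 3721 ± 194 FPKM in FG and 3496 ± 282 in SG (SD, n = 4 each, log2 fold change -0.09, limma adjusted p = 0.505). The ratio of Rbp4 to Ttr within a library, a quantity unaffected by scaling and chosen after the values were seen, was 0.563 to 0.60 in FG and 0.655 to 0.806 in SG. These ranges did not overlap, and how often ratios of other gene pairs separate the groups was not counted. The retinol uptake receptor Stra6 was at most 0.00585 FPKM and its liver counterpart Stra6l measured 9.06 ± 1.08 and 7.34 ± 1.06 FPKM (SD, n = 4 each, limma adjusted p = 0.143).

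Of the cellular binding proteins reported here, 1 was tested. Fabp5, a fatty acid carrier that also binds retinoic acid, fell from a mean of 56.0 ± 16.3 to 27.8 ± 11.6 FPKM (SD, n = 4 each, limma adjusted p = 0.0449). Leaving out any library other than SG 101 (FG 93, FG 94, FG 95, FG 96, SG 103, SG 104 and SG 105) ended the call of Fabp5, with adjusted p up to 0.101, as did median-ratio scaling (0.118). Rbp2, Rbp7 and Crabp1 were below the filter, and Crabp2 was not analysed here.

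Storage depends on Lrat, which esterifies retinol in stellate cells. It was the lowest of the 9 genes, at 3.48, 3.82, 2.84 and 2.28 FPKM in FG 93, 94, 95 and 96 and 2.29, 3.58, 3.14 and 2.38 FPKM in SG 101, 103, 104 and 105. The groups overlapped almost fully, and each held libraries below 2.5 and above 3. Means were 3.10 ± 0.685 and 2.85 ± 0.619 FPKM (SD, n = 4 each), resting on 480 to 797 fragments per library. The log2 fold change of -0.09 (95% interval -0.44 to 0.26, limma adjusted p = 0.706, exact permutation p = 0.657) turned to 0.04 after median-ratio scaling. The Lrat locus (chromosome 3, 82892582 to 82903974) overlaps the annotated non-coding gene Rbm46os, and since strand use in counting is not given, their reads cannot be told apart.

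Stellate cell markers were read beside Lrat. Of 18 listed, 15 were tested and 0 were called by limma or by limma voom, where limma called 19.4% of all tested genes. Acta2 alone had an unadjusted p under 0.05. The markers' median log2 fold change was 0.00, and their summed level was 163 to 223 FPKM in FG and 153 to 185 in SG. Most of that sum came from Dcn (means 56.1 in FG and 60.4 in SG) and Ecm1 (61.2 and 55.6). Reln, a defining stellate marker, was 5.26 ± 0.562 and 5.72 ± 0.070 FPKM (SD, n = 4 each). Des, another, reached 32.0 FPKM in FG 93 against 1.86 to 4.14 in the other FG libraries. Ngfr and Lhx2 were below the filter at 0.797 to 1.13 and 0.418 to 0.786 FPKM, so no defining marker was at 0. Leaving out FG 93 and FG 95 together gave 1 lower call. The part of cell composition in the level of Lrat was not tested beyond these values.

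**Figure D2:**
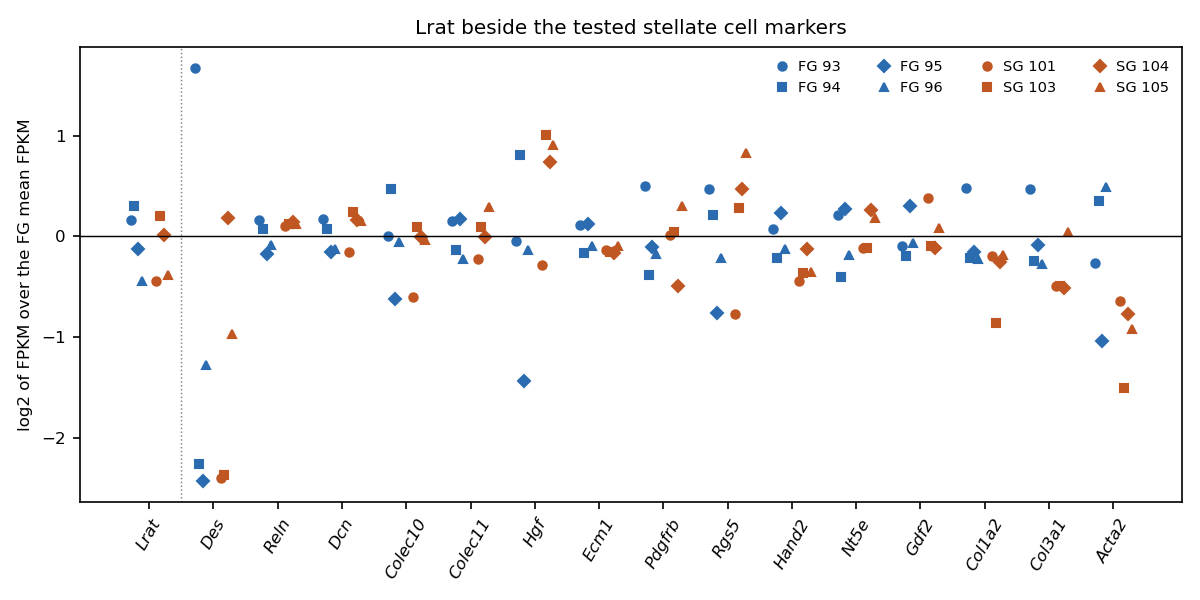
Log2 of each library's FPKM over the mean FPKM of FG, for Lrat and the 15 tested stellate cell markers (FG blue, SG orange, 1 symbol per library). Lrat overlaps between the groups and none of the markers was called, and FG 93 stands far above the other FG libraries for Des.

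Enzymes that make or break retinyl and other lipid esters gave 2 calls of 7 tested, in opposite directions. Of all tested genes, 19.4% were called in either direction. Ces1d, a carboxylesterase that hydrolyses retinyl and other esters, rose from 295, 247, 368 and 302 FPKM in FG 93, 94, 95 and 96 to 604, 869, 769 and 568 in SG 101, 103, 104 and 105. Every SG library exceeded every FG library, and the ratio of the means was 2.32 (log2 fold change 1.20, SE 0.163, limma adjusted p = 0.00319). Pnpla3, a lipase of lipid droplets with reported retinyl esterase activity, fell from 4.56, 2.65, 2.66 and 1.28 FPKM in FG to 0.0408, 0.0273, 0.0266 and 0.0568 in SG. Its SG libraries were close to the limit of detection, the lowest holding 5 fragments (log2 fold change -1.80, limma adjusted p = 0.00235). Pnpla3 passed the filter through its FG libraries alone, so its entry to the test rested on the higher group. Both calls held on leaving out any 1 library. Pnpla2, the main triglyceride lipase, was the most abundant of this role that did not pass, at 51.0 ± 5.26 and 62.5 ± 8.01 FPKM (SD, n = 4 each, limma adjusted p = 0.114, and 0.0426 after median-ratio scaling). Dgat1, which can esterify retinol, was 7.69 ± 0.398 and 7.55 ± 0.308 FPKM (limma adjusted p = 0.865).

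**Figure D3:**
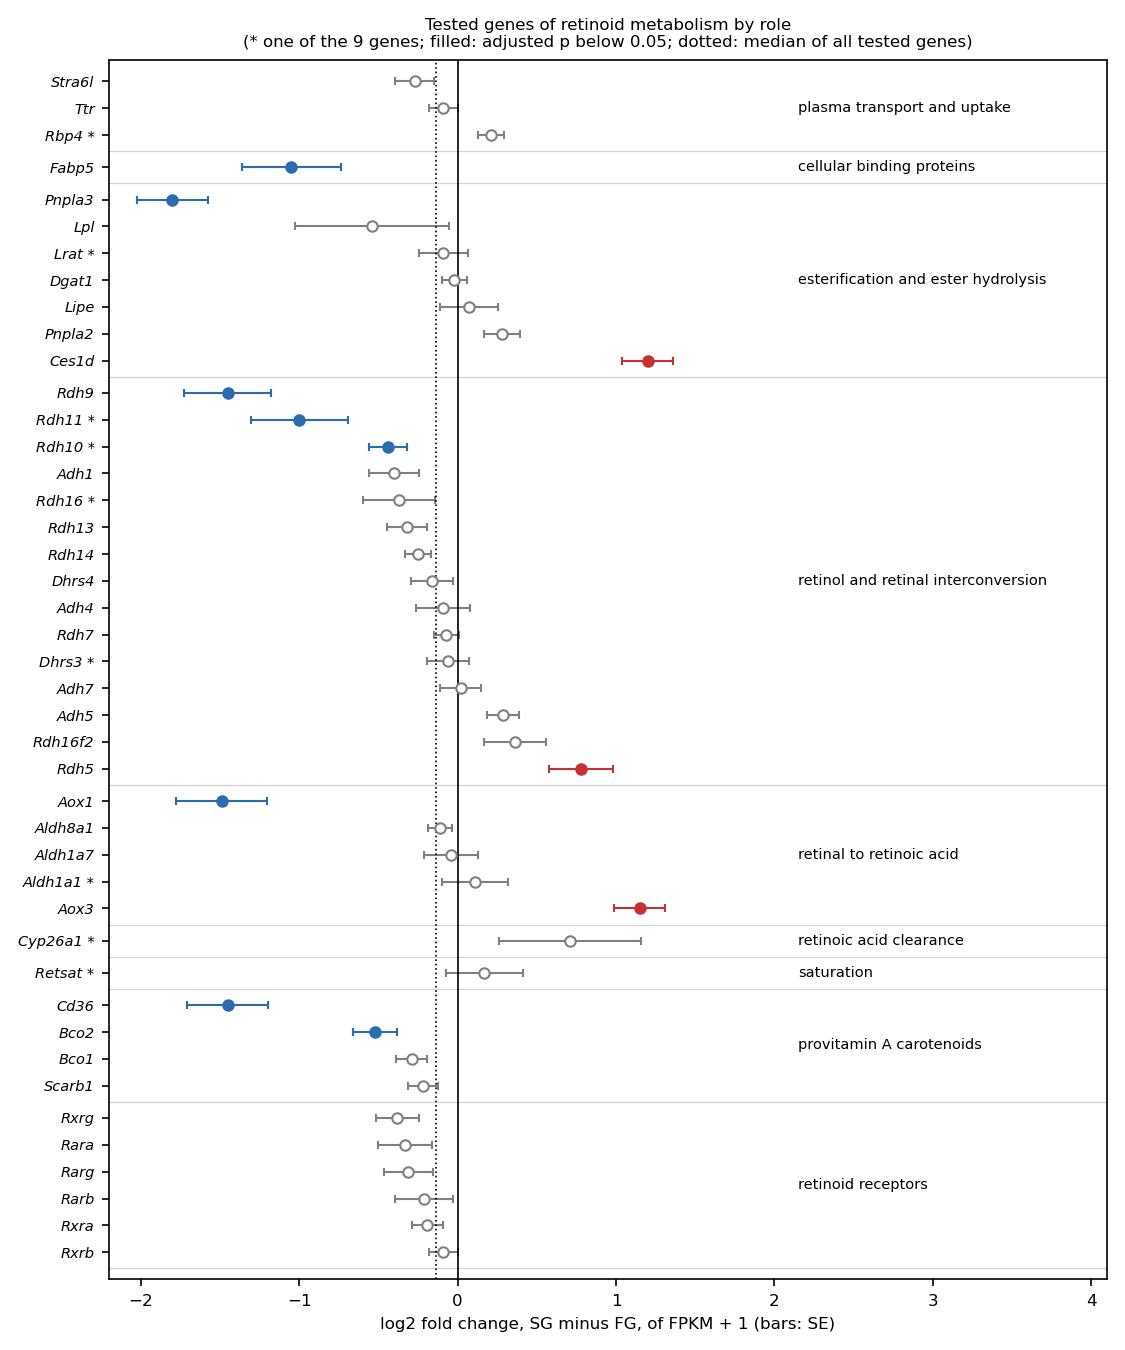
Log2 fold change of FPKM + 1, SG minus FG, with limma's SE, for the 43 tested genes of the retinoid list grouped by role. The 9 genes carry an asterisk and filled points passed the threshold. Of the 9, Rdh10 and Rdh11 are filled, to the left of 0, and the dotted line marks the median of all tested genes at -0.135.

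On the wider list of 58 retinoid genes reported here, 56 were in the table and 43 were tested. Called genes were 3 higher (Ces1d, Rdh5 and Aox3) and 8 lower (Fabp5, Pnpla3, Rdh9, Rdh10, Rdh11, Aox1, Bco2 and Cd36), or 25.6% of those tested beside 19.4% of all tested genes. Pnpla3 is counted there although only its FG libraries reached the filter. The list's median log2 fold change was -0.16, close to that of all tested genes. After median-ratio scaling 6 were higher and 4 lower. The count fell from 11 to 6 without FG 93 or without FG 95 and to 7 without FG 94, SG 103, SG 104 or SG 105.

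Interconversion of retinol and retinal is the step with the most enzymes, and both called genes of the 9 belong to it. The step holds enzymes that oxidise retinol and enzymes that reduce retinal, so its counts give no direction of flow. Rdh10, the dehydrogenase essential for retinoic acid synthesis in the embryo, lies on chromosome 1 at 16105882 to 16132550. It measured 9.64, 9.58, 11.4 and 10.4 FPKM in FG 93, 94, 95 and 96 and 6.72, 9.0, 7.49 and 6.07 FPKM in SG 101, 103, 104 and 105. Every SG library was below every FG library, and SG 103 came nearest to the FG range. The means were 10.2 ± 0.832 and 7.32 ± 1.26 FPKM (SD, n = 4 each), from 540 to 1095 fragments per library. Rdh10 fell by 0.44 on the log2 scale (SE 0.12, limma adjusted p = 0.0335, exact permutation p = 0.0286).

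The call of Rdh10 held without SG 103 (limma adjusted p = 0.0241) and was lost without any 1 of FG 93, FG 94, FG 95, FG 96, SG 101, SG 104 and SG 105 (0.0508 to 0.0819). After median-ratio scaling the log2 fold change of Rdh10 was -0.29 (adjusted p = 0.141). The tested genes most like Rdh10 over the 8 libraries were Sertad1 (Pearson r = 0.973) and Lmnb2, the lamin B2 gene (r = 0.972), as a description of libraries that share group and depth.

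Rdh11, a microsomal enzyme of retinol and retinal interconversion, was at 23.1, 17.4, 30.2 and 13.2 FPKM in FG 93, 94, 95 and 96. In SG 101, 103, 104 and 105 it was at 17.3, 6.56, 7.62 and 9.46 FPKM. SG 101 lay inside the FG range and the other SG libraries lay below it. The means were 21.0 ± 7.34 and 10.2 ± 4.86 FPKM (SD, n = 4 each). Rdh11 fell by 1.0 on the log2 scale (SE 0.307), with an adjusted p of 0.049955 in limma, at the edge of the threshold, and an exact permutation p of 0.0571.

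Because Rdh11 sat at that edge, small changes of method ended its call. Without FG 93, FG 94, FG 95, SG 103, SG 104 or SG 105 its adjusted p was 0.0722 to 0.125 in limma, whereas without FG 96 it was 0.0406 and without SG 101 it was 0.0132. A limma voom fit on fragments recovered from the FPKM steps gave 0.0502, and median-ratio scaling gave 0.118. Dad1 (Pearson r = 0.987), a subunit of the oligosaccharyltransferase, and Pmf1 (r = 0.981) had the patterns most like Rdh11 over the 8 libraries, again as a description.

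**Figure D4:**
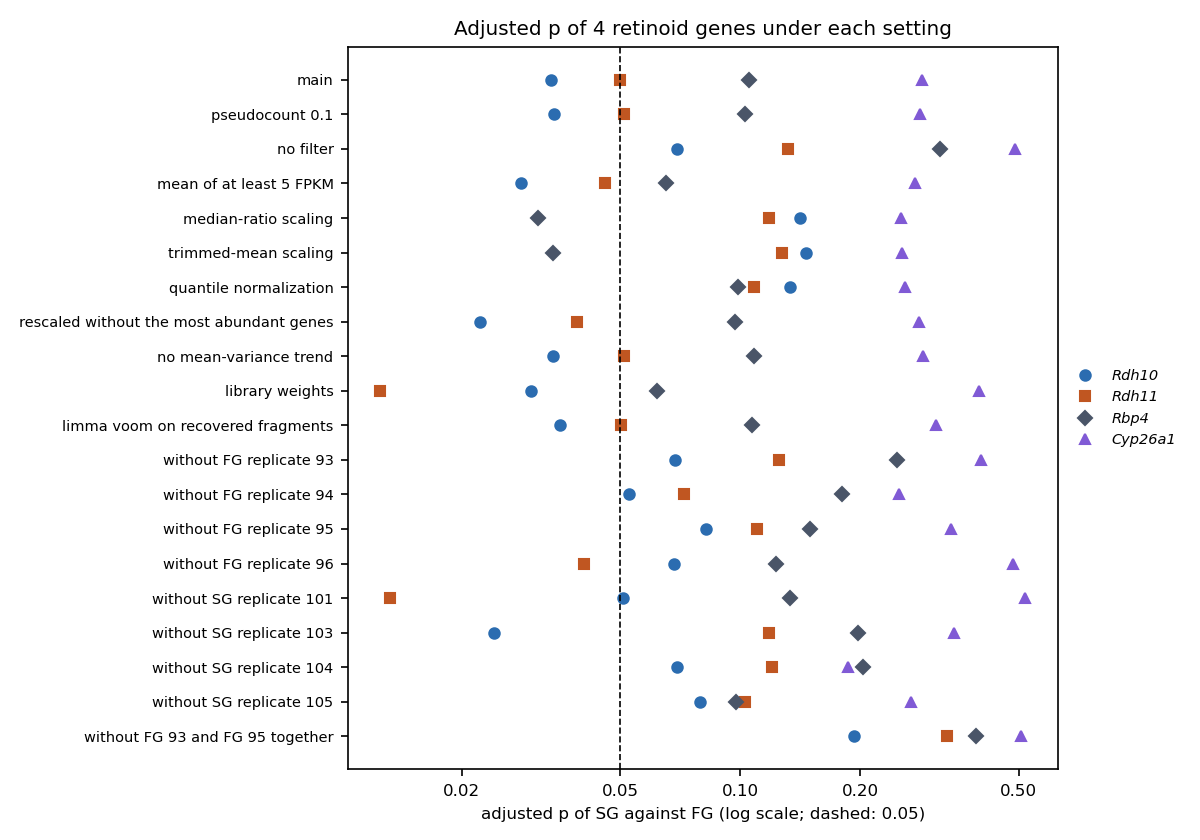
Adjusted p of SG against FG on a log scale for Rdh10, Rdh11, Rbp4 and Cyp26a1 under each setting of the analysis, with the threshold of 0.05 dashed. Rdh10 and Rdh11 cross the line under several settings, Rbp4 lies left of it only under median-ratio and trimmed-mean scaling, and Cyp26a1 stays right of it throughout these settings.

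Rdh16, a liver dehydrogenase of retinol and of sterols, measured 39.2, 41.0, 65.2 and 30.9 FPKM in FG 93, 94, 95 and 96 and 26.6, 31.7, 45.3 and 29.8 FPKM in SG 101, 103, 104 and 105. FG 95 was highest and the rest of FG overlapped SG. The difference was within the spread, with means of 44.1 ± 14.8 and 33.3 ± 8.23 FPKM (SD, n = 4 each, log2 fold change -0.37, 95% interval -0.88 to 0.15, limma adjusted p = 0.281). Rdh16 (chromosome 10, 127801090 to 127815846) belongs to a cluster of paralogs that runs from Rdh1 at 127759726 to Rdh7 at 127889247.

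The cluster's members did not share 1 pattern. Rdh9, next to Rdh16, fell from 49.5, 33.4, 47.6 and 31.0 FPKM in FG to 15.2, 10.1, 24.0 and 9.73 in SG, with no overlap (log2 fold change -1.45, SE 0.274, limma adjusted p = 0.0103), and its call held on leaving out any 1 library. Rdh16f2 was 66.8 ± 14.8 and 86.8 ± 20.8 FPKM (SD, n = 4 each, limma adjusted p = 0.215). Rdh7, the most abundant of the cluster, stood at 595 ± 20 and 567 ± 41.1 FPKM (SD, n = 4 each, limma adjusted p = 0.575). Rdh1 and Rdh19 were below the filter, and Rdh16f1 was not analysed here. The ratio of Rdh9 to Rdh16 within a library, chosen after the values were seen, was 0.729 to 1.26 in FG and 0.318 to 0.571 in SG. Rdh9 alone already separated the groups, and ratios of other gene pairs were not counted. The ratio of Rdh16f2 to Rdh16 overlapped between the groups, at 1.36 to 2.02 in FG and 1.67 to 3.79 in SG. Annotated transcripts of Rdh16 and Rdh9 share 0.510% of the 150-base stretches of Rdh16, and reads from those stretches cannot be told apart.

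**Figure D5:**
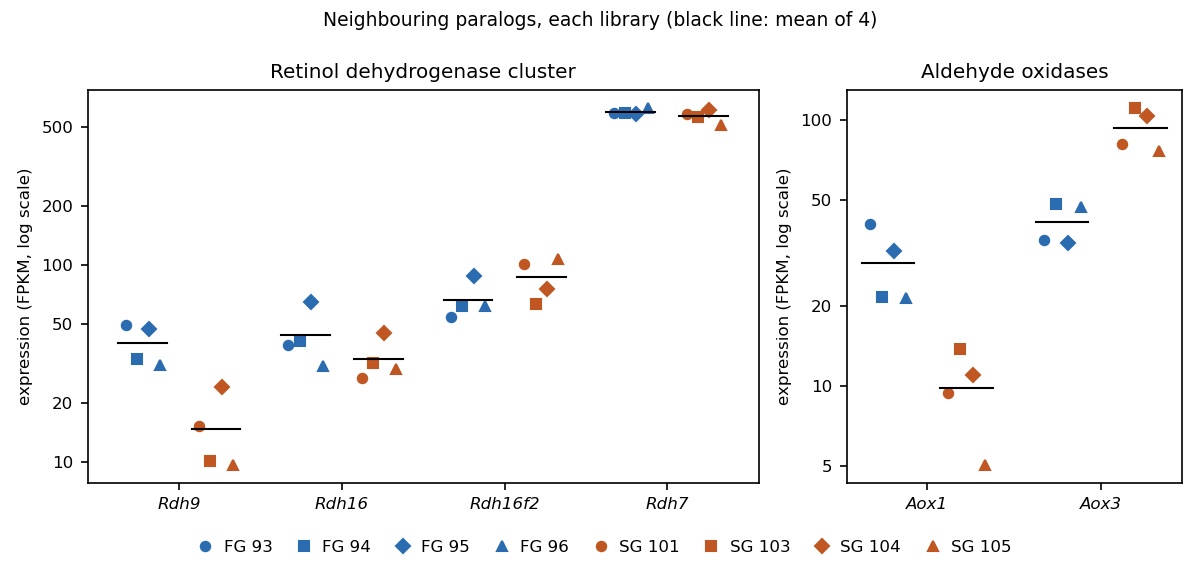
FPKM on a log scale of 4 neighbouring retinol dehydrogenases and of the 2 aldehyde oxidases in each library (FG blue, SG orange, line at the mean of 4). Rdh9 and Aox1 are lower and Aox3 is higher in every SG library than in every FG library, while Rdh16, Rdh16f2 and Rdh7 overlap between the groups.

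Dhrs3, which reduces retinal back to retinol and forms a complex with RDH10, measured 21.4, 23.0, 22.3 and 21.2 FPKM in FG 93, 94, 95 and 96. In SG 101, 103, 104 and 105 the values were 26.7, 22.5, 19.1 and 16.8 FPKM. FG was tight and SG lay on both sides of it, with a coefficient of variation of 3.8% against 20.2%. The means were 22.0 ± 0.835 and 21.3 ± 4.30 FPKM (SD, n = 4 each, log2 fold change -0.06, 95% interval -0.36 to 0.23, limma adjusted p = 0.763), and the sign turned after median-ratio scaling (0.10). The ratio of Rdh10 to Dhrs3, chosen after the values were seen, was 0.417 to 0.509 in FG and 0.252 to 0.40 in SG without overlap. Rdh10 alone already separated the groups, and how often ratios of other gene pairs do so was not counted. Dhrs3 shares its locus with Vps13d, whose reads cannot be told apart where strand use is not given.

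Of the 15 tested genes of this step, 1 was higher and 3 were lower, where 3.73% and 15.6% of all tested genes were. After median-ratio scaling 2 were higher and 1 was lower, and without FG 93 and FG 95 together none was called. The gene gained by that scaling was Adh5, the formaldehyde-detoxifying alcohol dehydrogenase, at 215 ± 24.4 FPKM in FG and 261 ± 14.6 in SG (SD, n = 4 each, no overlap). Its limma adjusted p was 0.0725 as deposited and 0.029 after the scaling. Rdh5, the 11-cis retinol dehydrogenase known from the eye, rose from 4.84 ± 1.01 to 9.21 ± 2.68 FPKM (SD, n = 4 each, log2 fold change 0.78, limma adjusted p = 0.0298). Leaving out FG 93, FG 95, SG 103 or SG 105 alone ended that call, with adjusted p up to 0.0823. Adh1, the abundant cytosolic alcohol dehydrogenase that also oxidises retinol, was the most abundant that did not pass, at 2148 ± 398 and 1622 ± 275 FPKM (SD, n = 4 each, limma adjusted p = 0.102).

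The irreversible step to retinoic acid is led in liver by Aldh1a1. It measured 369.6, 347, 367 and 284 FPKM in FG 93, 94, 95 and 96 and 422, 429, 443 and 227 FPKM in SG 101, 103, 104 and 105. SG 101, 103 and 104 were above every FG library, and SG 105 was below every one. The means were 342 ± 39.8 and 380.1 ± 103 FPKM (SD, n = 4 each, log2 fold change 0.11, 95% interval -0.36 to 0.58, limma adjusted p = 0.736). Without SG 105 the log2 fold change of Aldh1a1 was 0.34 and still missed the threshold (limma adjusted p = 0.0786). Aldh1a1 (chromosome 19, 20492583 to 20643463) overlaps the annotations E030003E18Rik, C730002L08Rik and Gm6684.

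Its paralog Aldh1a7 was 111 ± 30.2 and 105 ± 9.49 FPKM (SD, n = 4 each, limma adjusted p = 0.888) and shares 0 of its 150-base stretches with Aldh1a1. Aldh1a2 and Aldh1a3 were below the filter at up to 0.15 and 0.372 FPKM. The aldehyde oxidases, which can also oxidise retinal and lie side by side on chromosome 1 (Aox1 at 58029809 to 58106410, Aox3 at 58113135 to 58202221), moved in opposite directions.

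Aox1 fell from 40.5, 21.7, 32.2 and 21.4 FPKM in FG 93, 94, 95 and 96 to 9.39, 13.8, 11 and 5.06 in SG 101, 103, 104 and 105 (log2 fold change -1.49, SE 0.290, limma adjusted p = 0.0115). Aox3 rose from 35.4, 48.3, 34.6 and 47.3 FPKM to 81.4, 111, 104 and 76.2 (log2 fold change 1.15, SE 0.160, limma adjusted p = 0.0035). Neither gene's groups overlapped, and both calls held on leaving out any 1 library and after median-ratio scaling. The ratio of Aox3 to Aox1 within a library, chosen after the values were seen, was 0.873 to 2.22 in FG and 8.02 to 15.0 in SG. Each gene alone already separated the groups, and ratios of other gene pairs were not counted.

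Clearance is represented by Cyp26a1, which hydroxylates retinoic acid and is itself induced by it through response elements in its promoter. It measured 3.64, 5.33, 4.03 and 2.09 FPKM in FG 93, 94, 95 and 96 and 19.9, 5.79, 3.36 and 4.30 FPKM in SG 101, 103, 104 and 105. SG 101 stood far above the rest, and the other 3 SG libraries lay within or just above the FG range. The means were 3.77 ± 1.33 and 8.34 ± 7.78 FPKM (SD, n = 4 each, log2 fold change 0.71, 95% interval -0.30 to 1.72, limma adjusted p = 0.286). Without SG 101 the log2 fold change of Cyp26a1 was 0.22 (limma adjusted p = 0.520). Cyp26b1 and Cyp26c1 were below the filter.

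Some other genes known to be induced by retinoic acid were read beside it. Tgm2, a transglutaminase, was 31.5 ± 6.25 and 21.9 ± 3.90 FPKM (SD, n = 4 each, log2 fold change -0.50, limma adjusted p = 0.0629). Rarb, whose window carries the same kind of repeat as that of Cyp26a1, was 1.5 ± 0.546 and 1.15 ± 0.421 FPKM (SD, n = 4 each, limma adjusted p = 0.438). SG 101 was the highest SG library for Rarb too, at 1.71 FPKM, and lay inside the FG range of 1.03 to 2.23. For Tgm2 SG 101 was again the highest of SG, at 27.0 FPKM, and lay inside the FG range of 24.8 to 37.0. Cyp26b1, below the filter, was highest of all 8 libraries in SG 101, at 1.48 FPKM against at most 0.891 elsewhere. For Dhrs3, which retinoic acid also induces, SG 101 was the highest of all 8 libraries. For Lrat, which it induces as well, SG 101 was the lowest of SG at 2.29 FPKM.

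None of the 6 retinoid receptor genes was called by limma, which called 19.4% of all tested genes. Limma voom also called 0 of the 6, and Rxrg alone had an unadjusted p under 0.05. Rxra, the partner of most metabolic nuclear receptors and the most abundant of them, was 94.0 ± 1.57 FPKM in FG and 82.6 ± 11 in SG (SD, n = 4 each, log2 fold change -0.19, limma adjusted p = 0.198). All 6 had negative log2 fold changes, as did 6898 of the 9867 tested genes. That of Rxrb turned positive after median-ratio scaling.

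Retsat, which saturates retinol to dihydroretinol, was the third most abundant of the 9 genes. Its levels were 344, 227, 422 and 242 FPKM in FG 93, 94, 95 and 96 and 276, 432, 421 and 254 FPKM in SG 101, 103, 104 and 105. Each group held a high and a low pair of libraries, and the groups overlapped. The means were 309 ± 91.6 and 346 ± 93.9 FPKM (SD, n = 4 each, log2 fold change 0.17, 95% interval -0.38 to 0.71, limma adjusted p = 0.650).

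Genes of the provitamin A carotenoid role, which take up or cleave carotenoids, gave 2 lower calls of 4 tested, where 15.6% of all tested genes were called lower. After median-ratio scaling 1 was called, and without FG 93 and FG 95 together 0 were. Cd36, a scavenger receptor for lipids and carotenoids, fell from 26.5 ± 8.68 to 8.90 ± 2.40 FPKM (SD, n = 4 each, log2 fold change -1.45, limma adjusted p = 0.00825) and kept its call on leaving out any 1 library. Bco2, the mitochondrial enzyme that cleaves carotenoids eccentrically, fell from 9.10 ± 0.331 to 6.17 ± 1.32 FPKM (SD, n = 4 each, log2 fold change -0.52, limma adjusted p = 0.0337). Leaving out any single FG library (93, 94, 95 or 96), SG 103 or SG 104 ended the call of Bco2, with adjusted p up to 0.0789, as did median-ratio scaling (0.118). Scarb1, the most abundant that did not pass, was 54.5 ± 4.91 and 46.7 ± 3.8 FPKM (SD, n = 4 each, limma adjusted p = 0.132).

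FG 93 and FG 95 stood apart from the other FG libraries for Cyp2a4, and some of the retinoid genes, not all, were highest of FG there. Cyp2a4, a gene higher in female liver, was at 219 and 239 FPKM in these libraries, 5.74 in FG 94, 1.30 in FG 96 and at most 1.01 in SG. Rdh11 (23.1 and 30.2 FPKM), Rdh9 (49.5 and 47.6), Aox1 (40.5 and 32.2), Cd36 (36.8 and 29.5) and Retsat (344 and 422) all had their highest pair of FG values there. So did Aldh1a1 (369.6 and 367), whereas Rbp4, Lrat, Rdh16, Rdh10, Dhrs3 and Cyp26a1 did not. These genes were picked after their values were seen, and the share of all tested genes with this pair highest was not counted. Without both libraries, a setting added after the data were seen, 0 of the 9 genes and 3 of the 43 list genes (Pnpla3, Ces1d and Aox3) were called, with 235 of all tested genes. The log2 fold change of Rdh11 was then -0.62 (limma adjusted p = 0.330) and that of Rdh10 was -0.41 (0.193), from a fit with 2 FG libraries.

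Genes with a sex bias in liver differed between the groups as a whole. Of 6 genes higher in males, 4 were higher in SG by limma, and the summed level of the 6 was 360.4 to 1339 FPKM in FG and 6597 to 10631 in SG. Cyp2b9, higher in females, fell from 18.4 to 84.1 FPKM in FG to 0.0496 to 0.355 in SG (limma adjusted p = 0.000433). Like Pnpla3, it passed the filter through its FG libraries alone. Xist was at most 0.00891 FPKM, and 0 of the 4 tested Y-linked genes were called. The Y-linked genes were present in all 8 libraries. Their lowest values, all in FG 95, were 0.904 FPKM for Ddx3y, 1.33 for Eif2s3y, 0.407 for Uty and 1.68 for Kdm5d. That is the pattern of male tissue in every library, though sex is not labelled. Sinusoidal endothelial markers gave 2 lower calls of 7, with summed levels of 115 to 136 FPKM in FG and 90.2 to 101 in SG. Most of these sums came from the called genes, Clec4g (means 51.6 in FG and 34.7 in SG) and Fcgr2b (33.3 and 27.1). Groups overlapped for the 5 that were not called. Their log2 fold changes were -0.01 for Stab2, -0.09 for Kdr, -0.19 for Oit3, -0.32 for Pecam1 and 0.24 for Lyve1. Hepatocyte markers gave 1 higher of 7, biliary markers 1 lower of 2, and macrophage markers 0 of 6. Of all tested genes, 15.6% were called lower and 3.73% higher. After median-ratio scaling the sinusoidal and biliary lists held 0 calls and the hepatocyte list 2, and limma voom left 1 sinusoidal call. Leaving out any 1 of the 8 libraries (FG 93, FG 94, FG 95, FG 96, SG 101, SG 103, SG 104 or SG 105) ended the calls of the sinusoidal marker Fcgr2b and the hepatocyte marker Apoa1. Leaving out FG 93 ended that of Clec4g, the other sinusoidal call (adjusted p = 0.0514), and leaving out FG 93, FG 94, FG 95, SG 104 or SG 105 ended that of Spp1, the biliary call (adjusted p up to 0.0619). The single tested lymphocyte marker and the single tested adipocyte marker were not called, and neither these, the macrophage markers nor the Y-linked genes held a gene at an unadjusted p under 0.05 or a call by limma voom. The part of any of these in the retinoid genes was not tested.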

How the data were processed

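RNA from liver was sequenced in 8 libraries as 150 bp pairs, per the labels' protocols. The submitters' processing notes name fastp, HISAT2, HTSeq and DESeq2 with builds GRCm38 and mm10, without roles or versions, and the series text credits the alignment to HISAT2. The deposited values are FPKM computed by the authors for 21358 genes, and no source used here gives the strand setting of the counting. Columns were matched to samples by label, and 0 value columns were left unmatched.

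Genes with FPKM of at least 1 in at least 4 libraries (9867) were fitted as log2(FPKM + 1) with limma 3.58.1 in R 4.3.3 (all 8 libraries, no covariates, empirical Bayes with a trend), with Benjamini-Hochberg adjustment across this whole set. The exact permutation test ran over 70 assignments, two-sided. Whole fragments were recovered from the FPKM steps for 100% of tested genes within 0.02 fragments. The limma script was tested on simulated data.

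The 9 genes and the lists were chosen with earlier results of these data known. A single gene of the lists is not reported here and is left out of list counts, though not of the fit. Named genes were the 9, every called gene of the retinoid list, the most abundant gene of each role that did not pass, paralogs of Rdh16 and Aldh1a1, markers beside them, and the 2 tested genes most correlated with each called gene; other names were chosen after values were seen. Alternatives covered the pseudocount, filter, scaling, variance model, weights, thresholds, recovered fragments and each library in turn. Gene positions and promoter windows are RefSeq's for GRCm38.p6, in which 20804 gene IDs were found.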

Additional observations from a re-analysis of the deposited data

Results flagged for a closer look

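A single library stood far from the other 3 of its group for 3 of the 9 genes. The gap to the nearest library was taken over the whole range of the group. It exceeded Dixon's 95% critical value for 4 samples in 3 of the 18 sets that the 9 genes make in FG and SG. Together with the other called genes of the retinoid list, 3 of 36 sets exceeded that value. Chance flags about 1 in 20 groups. For Rbp4, SG 105 was lowest at 2333 FPKM, against 2527 to 2555 in the other SG libraries (gap over range 0.873). Aldh1a1 was also lowest in SG 105, at 227 FPKM against 422 to 443 (0.903). Cyp26a1 was highest in SG 101, at 19.9 FPKM against 3.36 to 5.79 (0.853). SG 105 thus had the lowest value of its group for both Rbp4 and Aldh1a1. The cause was not tested.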

How the results depend on the processing

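No paired analysis was possible because the groups share no replicate numbers. Of the 9 genes, 2 were called, and the count was 1 with a pseudocount of 0.1, median-ratio scaling, trimmed-mean scaling, no mean-variance trend, limma voom on recovered fragments or a minimum of 1.5-fold, 0 with no filter, quantile normalization or without FG 93 and FG 95 together, and 0 to 1 on leaving out each library. The retinoid list's 11 calls became 6 with no filter, 3 without FG 93 and FG 95 together, and 6 to 13 on leaving out each library. The 1912 calls of all tested genes became 1133 with no filter, 1044 with median-ratio scaling (545 higher, 499 lower), 1025 with trimmed-mean scaling (550 and 475), 1078 with quantile normalization, 2922 at an adjusted p below 0.1, 755 with a minimum of 1.5-fold, 235 without FG 93 and FG 95 together, and 834 to 2363 on leaving out each library. Signs turned for Lrat (0.039 with median-ratio scaling, 0.042 with trimmed-mean scaling, 0.040 with quantile normalization, 0.048 with library weights) and Dhrs3 (0.105, 0.109 and 0.064 with those 3 scalings in that order, 0.038 without SG 105, in a range of -0.174 to 0.038 on leaving out each library). Of 188 single-gene values for the 9 genes under an alternative, 151 kept direction and side of the threshold, 27 lost the call, 2 gained one and 8 turned. For other called list genes, 154 of 188 kept both and 34 lost the call. Apart from settings with fewer samples or more genes tested, the cause was not tested. Among the 9 genes depth was lowest for Cyp26a1, with as few as 153 fragments in a library, and then Lrat, with 480. Pnpla3, on the wider list, had as few as 5.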
